A study of Mus musculus with 48 samples.

Results

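The 7 genes of 2 cytokine systems and of the microglial growth factor followed here were the tumour necrosis factor gene Tnf, the interleukin-1 genes Il1a and Il1b, the interleukin-1 receptor antagonist Il1rn, the colony stimulating factor Csf1, and the TNF receptors Tnfrsf1a and Tnfrsf1b. They were chosen by name, with earlier results of these data known, and all 7 were found among the 48526 genes of the deposited expression table. The RNA came from hippocampal microglia of C57BL/6 mice, isolated by flow cytometry on the chemokine receptor Cx3cr1 after a mild enzymatic digestion. On postnatal day 21 the mice had received 8 Gy to the whole brain in 1 dose, or a sham procedure. They were killed 2 h, 6 h, 1 day or 1 week later, with 6 sham and 6 irradiated animals at each time, so that 8 groups gave 48 bulk libraries and every time had its own sham animals. The labels give neither the sex of the mice nor what the sham procedure was, and they name 1 strain, 1 dose and 1 age at irradiation. Because each library is a pool of sorted cells, a change in the share of cells that make a transcript and a change in the amount made per cell cannot be told apart.

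Microglia are the resident macrophages of the brain and make all of these ligands when activated. TNF is made as a membrane protein that is shed by the protease ADAM17, and it signals through TNFR1 (Tnfrsf1a), which carries a death domain, and TNFR2 (Tnfrsf1b), which does not. IL-1 alpha and IL-1 beta share 1 receptor, IL-1 beta needs cleavage to become active, and the antagonist encoded by Il1rn occupies that receptor without signalling. CSF1 is a ligand of CSF1R, the receptor on which microglia depend for survival.

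The stretch just before the start of a gene is where many inducible factors bind, so the 250 bases upstream of the first RefSeq start are shown for the 4 ligand genes whose levels are described most fully below (RefSeq, build GRCm38.p6, 5′ to 3′ along the gene). Capitals mark matches, on either strand, to the NF-kB consensus, to the AP-1 motif TGANTCA, to the C/EBP motif TTGCNNAA or to the PU.1 motif GAGGAA.
Tnf (chr17:35202008-35202257, minus strand): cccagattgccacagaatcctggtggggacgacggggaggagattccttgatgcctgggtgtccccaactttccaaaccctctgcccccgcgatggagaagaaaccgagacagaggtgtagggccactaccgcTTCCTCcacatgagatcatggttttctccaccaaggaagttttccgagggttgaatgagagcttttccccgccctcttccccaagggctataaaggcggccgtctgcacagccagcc
Il1a (chr2:129309973-129310222, minus strand): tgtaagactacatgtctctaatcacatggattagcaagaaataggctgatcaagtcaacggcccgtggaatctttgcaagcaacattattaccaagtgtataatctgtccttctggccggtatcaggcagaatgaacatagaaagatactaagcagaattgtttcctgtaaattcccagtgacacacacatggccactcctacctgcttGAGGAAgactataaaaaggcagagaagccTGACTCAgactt
Il1b (chr2:129371140-129371389, minus strand): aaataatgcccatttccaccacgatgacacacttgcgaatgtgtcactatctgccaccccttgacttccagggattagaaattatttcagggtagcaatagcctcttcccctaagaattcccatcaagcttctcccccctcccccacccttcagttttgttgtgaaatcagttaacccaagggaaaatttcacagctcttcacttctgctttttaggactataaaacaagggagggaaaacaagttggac
Csf1 (chr3:107760470-107760719, minus strand): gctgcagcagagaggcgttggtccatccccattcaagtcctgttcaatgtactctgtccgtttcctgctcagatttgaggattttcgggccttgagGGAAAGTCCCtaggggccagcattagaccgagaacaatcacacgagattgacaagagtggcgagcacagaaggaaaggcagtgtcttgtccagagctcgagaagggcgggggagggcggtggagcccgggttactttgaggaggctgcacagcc
In these windows Csf1 held a match to the NF-kB consensus 154 bases before its start, which 3.90% of all 32851 RefSeq windows of this length hold. Il1a held an AP-1 match 12 bases before its start (6.75% of windows) and a PU.1 match 41 bases before it (23.3%), and Tnf held a PU.1 match 117 bases before its start. In Il1b none of these 4 motifs was matched within the window, and no window of the 4 held the C/EBP letters (9.56% of windows do). Tnf, Il1a and Il1b each held the TATA box letters TATAAA, at 29, 32 and 31 bases before the start, where 12.4% of all windows hold them at some place, and Csf1 did not. A match shows only that the letters are present.

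Levels below are RPKM, that is, reads on the gene scaled to 1000000 reads on all genes and divided by kilobases of the gene from its start to its end, introns included (RPM, reads per 1000000, where not divided by length), remade from the recovered reads with each library's own total. A change is the irradiated group less the sham group in log2(RPKM + 1), followed by ± its standard error, and the adjusted p beside it is limma's, over the 10132 genes tested, unless another test is named. A change on this scale understates that of a gene near or below 1 RPKM. Library totals ran from 175382 to 3856777 reads, and 3 libraries were below 1000000 (irradiated 2 h library 2, sham 6 h library 4 and sham 1 day library 6). Microglial markers summed to 25849 to 49680 RPM across the libraries, and the 10 neuronal markers to at most 14.6 RPM apart from 365 RPM in 1 irradiated 1 week library. At 6 h the calls depended on which sham libraries were used: 30.2% of genes passed the threshold against sham libraries 1 to 4 and 2.09% against sham libraries 5 and 6, although 2 libraries also give a weaker test than 4. At equal numbers, 1929 genes passed at 6 h within libraries 1 to 3 of both groups and 338 within libraries 4 to 6. Values at 6 h are therefore also given against sham libraries 5 and 6, where a lost call can come with a change of the same size.

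Of the 6 genes that passed the level filter, 2 rose at 2 h (Tnf and Il1b), 5 at 6 h (all but Tnfrsf1a), 3 at 1 day (Tnf, Il1a and Il1b) and 0 at 1 week, and none fell at any time. Over all genes tested the share past the threshold was 8.62% at 2 h, 20.9% at 6 h, 4.29% at 1 day and 3.54% at 1 week, in either direction. The share that rose was 4.6%, 12.9%, 2.9% and 2.03%. Since the members were chosen with earlier results of these data known, their counts beside these shares are a description. At 1 week 2 of the 6 (Tnf and Tnfrsf1a) had an unadjusted limma p under 0.05, and limma with voom weights called the same 2. Among the 4 sham groups 0 of the 6 differed (F test, limma), where 21.1% of all genes did, with 3 of the 6 at an unadjusted p under 0.05 and 2 called with voom weights. With the values as deposited, few of which carry their own library's total, 1 of the 6 was called at 2 h, 1 at 6 h and 0 at 1 day. Il1rn was below the filter and is described from its reads.

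**Figure D1:**
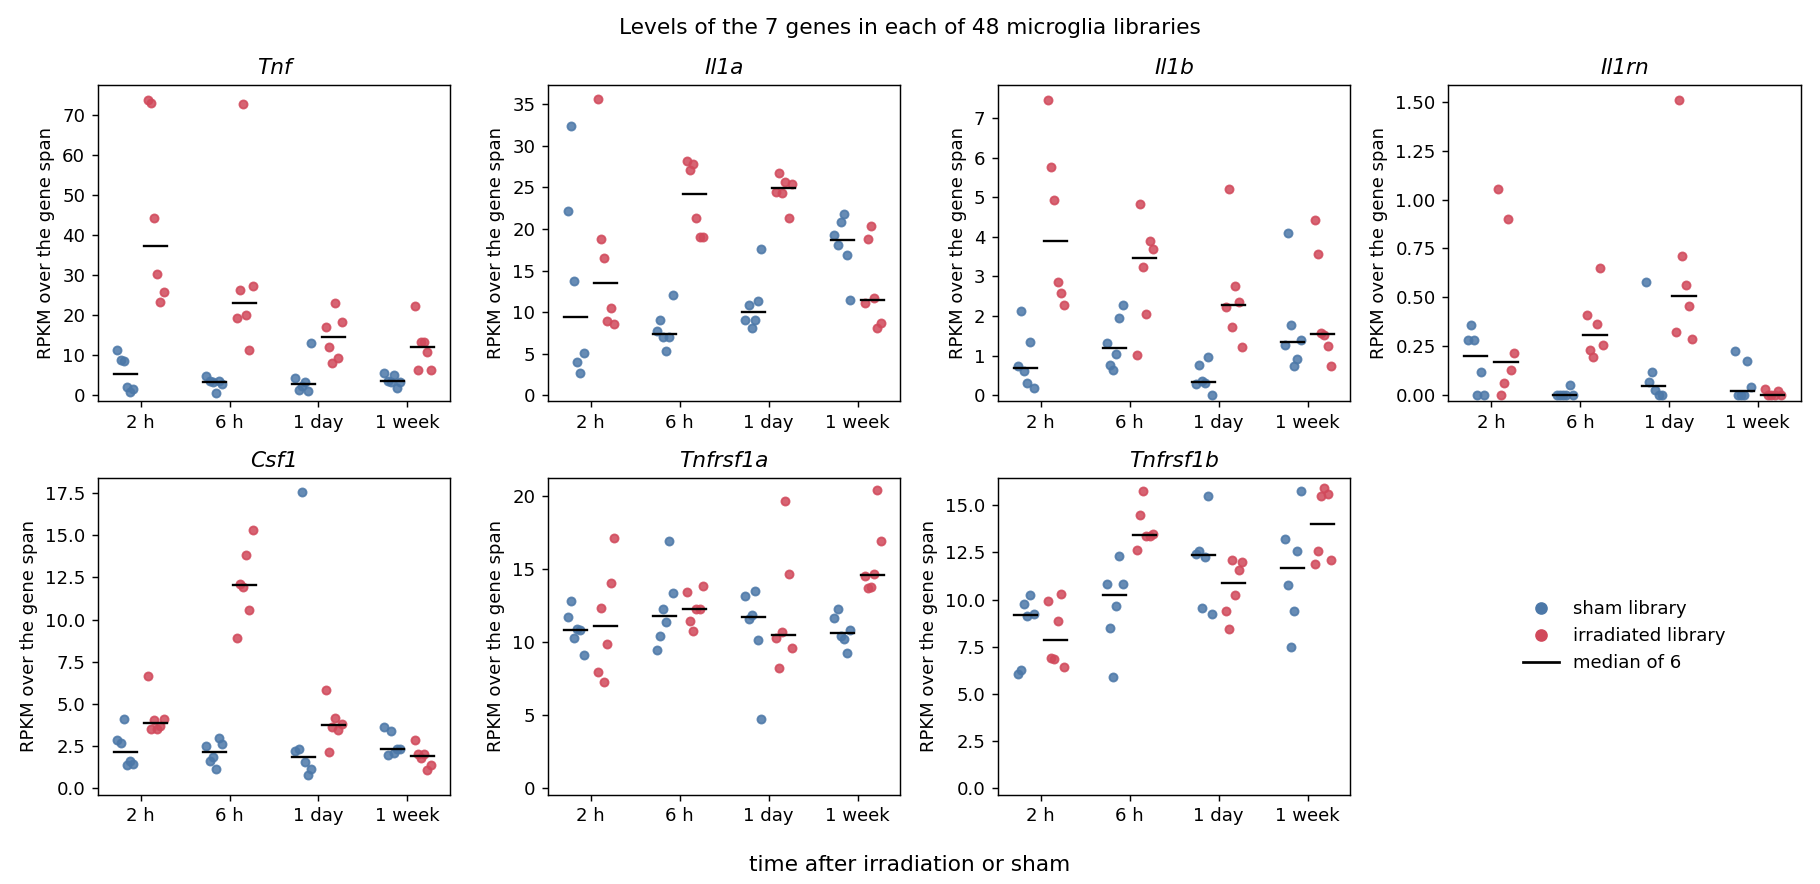
RPKM over the gene span (y axis, linear, a scale for each gene) of the 7 genes in each library at 4 times (x axis), with 6 sham libraries in blue, 6 irradiated libraries in red and black bars for the medians. The irradiated Tnf points lie above all sham points at 2 h, 6 h and 1 week, the Csf1 points stand at 8.88 to 15.3 at 6 h alone among the irradiated groups, and 1 sham Csf1 point lies at 17.5 at 1 day.

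**Figure D2:**
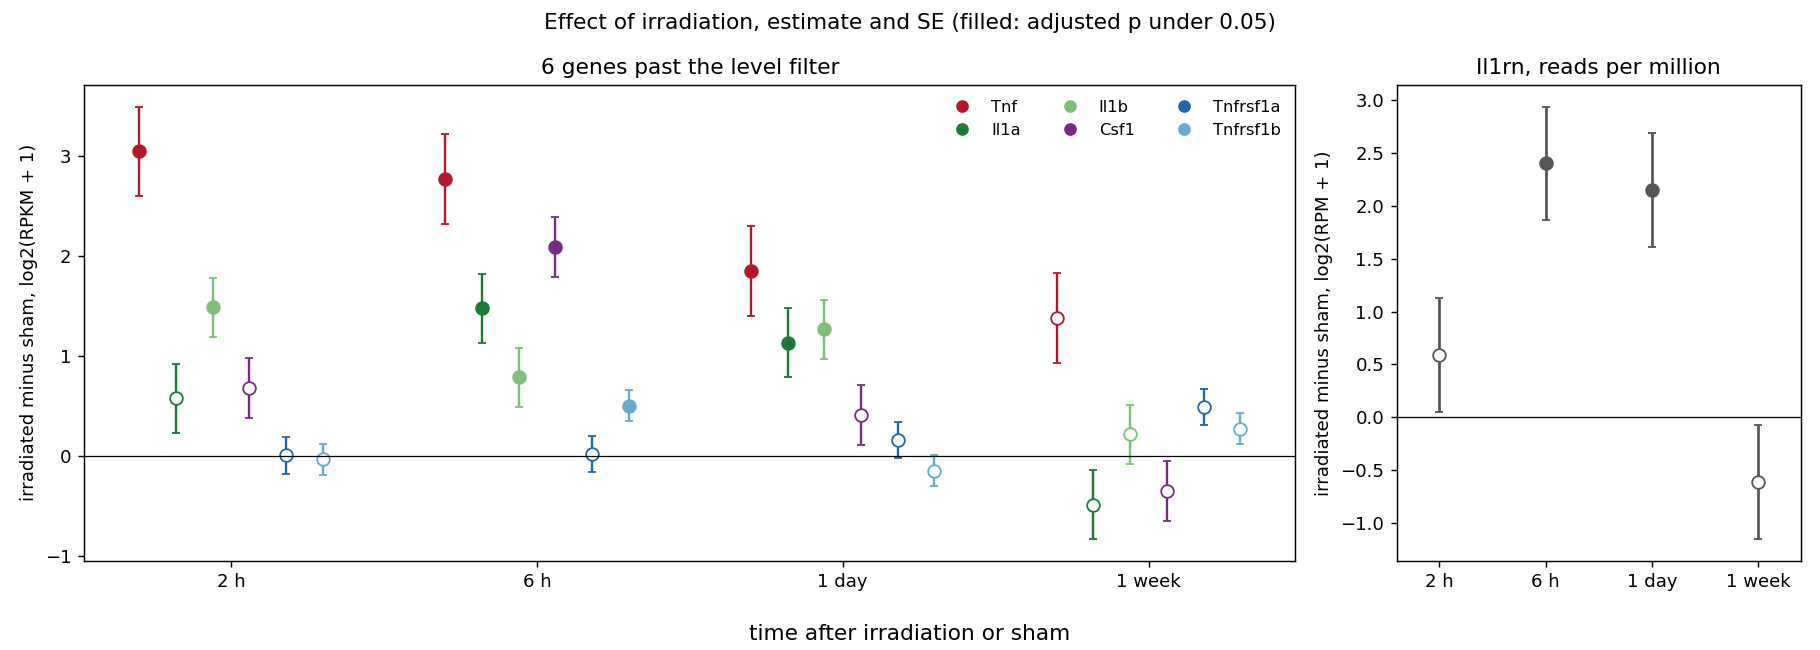
Irradiated minus sham (y axis, log2 scale) with its SE at each time (x axis), on log2(RPKM + 1) for the 6 genes past the level filter and on log2(RPM + 1) for Il1rn. Filled circles passed an adjusted p of 0.05, which Tnf did at 2 h, 6 h and 1 day and no gene did at 1 week.

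Tnf (ENSMUSG00000024401, GRCm38 chromosome 17, 35199381 to 35202007, minus strand) had the greatest change of the 6 in log2(RPKM + 1) at each time, while at 1 day the ratio of mean RPM was greater for Il1b (5.81 times higher in irradiated libraries, against 3.49 for Tnf). At 2 h its level was 0.836 to 11.3 RPKM in the sham libraries with a median of 5.28, and 23.2 to 73.9 RPKM in the irradiated ones with a median of 37.4. The groups did not overlap, as was so, with the irradiated group higher, for 2.47% of all genes tested. The change was 3.04 ± 0.45 (adjusted p = 2.70e-06), and the mean RPM was 8.17 times higher. Among all genes this stood at the 99.9th percentile of the changes at that time.

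At 6 h the sham libraries held 0.520 to 4.88 RPKM of Tnf (median 3.37) and the irradiated ones 11.4 to 72.7 (median 23.1). Again no irradiated library fell within the sham range, which was so in that direction for 4.96% of genes. Tnf rose by 2.76 ± 0.45 (adjusted p = 1.28e-05), and by 2.61 against sham libraries 5 and 6 alone (adjusted p = 0.0134). Irradiated library 3 carried the 72.7 RPKM, while the next highest held 27.3.

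At 1 day the sham range was 0.944 to 13.02 RPKM with a median of 2.73, and the irradiated range was 8.11 to 23.0 with a median of 14.6. The ranges overlapped through sham library 6, the shallowest of the study, in which 13.02 RPKM rests on 6 reads. The other 5 sham libraries ended at 4.39. Tnf rose by 1.85 ± 0.45 (adjusted p = 0.00696).

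A week after irradiation Tnf held 1.88 to 5.46 RPKM in sham (median 3.504) and 6.27 to 22.3 in irradiated libraries (median 12.1). Every irradiated library was above every sham library, as for 2.06% of genes in that direction, yet the limma test was not passed (1.38 ± 0.45, adjusted p = 0.0744). An exact two-sided permutation test of the 6 against 6 libraries gave an unadjusted p of 0.00216, the smallest it can give. The threshold was passed when 1 week was fitted without the other times (adjusted p = 0.0351) and without the 3 shallow libraries (adjusted p = 0.0389). In order of their medians the groups ran from irradiated 2 h through irradiated 6 h, 1 day and 1 week to the 4 sham groups, and each neighbour in this order overlapped the next. The test of whether the effect differed between the times was not passed (F test, limma adjusted p = 0.130).

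Il1b (ENSMUSG00000027398, chromosome 2, 129364570 to 129371139, minus strand), whose product is processed by inflammasome caspases, was low throughout, with 0 to 108 reads in a library. In sham libraries at 2 h it held 0.182 to 2.13 RPKM (median 0.679) and in irradiated libraries 2.27 to 7.46 (median 3.89). The groups did not overlap. Il1b rose by 1.49 ± 0.29 at 2 h (adjusted p = 0.000356), with a mean RPM 4.88 times higher.

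At 6 h the Il1b groups overlapped, with 0.641 to 2.28 RPKM in sham (median 1.18) and 1.01 to 4.83 in irradiated libraries (median 3.47). The change of 0.79 ± 0.29 stood at the threshold (adjusted p = 0.0499) and was past it in 4 of 12 fits that each left out 1 of the 6 h libraries. Against sham libraries 5 and 6 alone it was 0.32 (adjusted p = 0.938). At 1 day the sham libraries held 0 to 0.971 RPKM (median 0.332) and the irradiated ones 1.21 to 5.21 (median 2.29), with no overlap, which was so with irradiation higher for 2.29% of genes. Il1b rose there by 1.27 ± 0.29 (adjusted p = 0.00441). At 1 week both groups spanned nearly the same range, 0.725 to 4.09 against 0.738 to 4.43 RPKM, and the change was 0.22 ± 0.29 (adjusted p = 0.758).

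Il1a (ENSMUSG00000027399, chromosome 2, 129299610 to 129309972, minus strand), whose product is active without cleavage, had no called change at 2 h. Its sham libraries spread from 2.71 to 32.5 RPKM at that time (median 9.39) and its irradiated libraries from 8.62 to 35.7 (median 13.5). The ranges overlapped, although sham libraries 4 to 6, at 2.71 to 5.08 RPKM, lay below every irradiated library. The change was 0.58 ± 0.34 (adjusted p = 0.371).

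At 6 h Il1a was 5.27 to 12.1 RPKM in sham (median 7.38) and 19.0 to 28.2 in irradiated libraries (median 24.2). It rose by 1.48 ± 0.34 (adjusted p = 0.00154), with no overlap between the groups. Against sham libraries 5 and 6 alone the difference was 1.25, and the test was not passed (adjusted p = 0.290). At 1 day the irradiated libraries lay close together at 21.3 to 26.7 RPKM (median 25.0), above the sham range of 8.14 to 17.6 (median 9.96). The change of 1.13 ± 0.34 passed the test (adjusted p = 0.0466), but did so in 1 of the 12 fits that left out a 1 day library, whose adjusted p ran from 0.0256 to 0.102. That 1 fit left out sham library 6, which held the 17.6 RPKM on 32 reads.

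By 1 week the Il1a medians stood in the opposite order, 18.7 RPKM in sham (11.4 to 21.9) and 11.4 in irradiated libraries (8.06 to 20.3). The groups overlapped and the difference of -0.48 ± 0.34 was not past the threshold (adjusted p = 0.481). The effect of irradiation on Il1a did differ between the times (F test, limma adjusted p = 0.0132, where 19.3% of all genes passed). Between 1 day and 1 week the effect dropped by 1.62 ± 0.48 (adjusted p = 0.0390, a test that 5.43% of genes passed). The group medians ran from irradiated 1 day and 6 h at the top to sham 6 h at the bottom, and every group overlapped the next.

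Overlapping genes bear on the interleukin values, since the sources used here do not say whether reads were counted by strand. The antisense gene Gm14023 overlaps Il1a and took 6631 reads over all libraries beside the 17309 of Il1a. It rose too, by 0.74 ± 0.20 at 2 h (adjusted p = 0.0120), 0.86 ± 0.20 at 6 h (adjusted p = 0.00163) and 0.70 ± 0.20 at 1 day (adjusted p = 0.0321), so at 2 h it passed the test where Il1a did not. Il1bos overlaps Il1b with 164 reads in all and had no called change. The other members overlap no annotated gene of the GENCODE M21 set, whose positions are those of the deposited table.

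Il1rn (ENSMUSG00000026981, chromosome 2, 24336853 to 24351494, plus strand), the antagonist of both interleukins, gave 327 reads in all 48 libraries. At 6 h 5 of 6 sham libraries had 0 reads and the sixth had 2, whereas each irradiated library had 7 to 13. That is 0 to 0.732 RPM against 2.86 to 9.51 RPM, with no overlap. With the reads of each group added up, 54 in 11295155 against 2 in 14089434, the ratio was 33.7, and its exact 95% interval of 8.88 to 285 covers counting error only. In a limma fit of log2(RPM + 1) over 15256 genes, which Il1rn entered because the filter was set at 1 RPM, it rose by 2.40 ± 0.54 (adjusted p = 0.000933). In that fit 10.6% of genes rose at 6 h and 2.67% at 1 day.

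The antagonist was also higher at 1 day, at 4.24 to 22.1 RPM in irradiated libraries (median 7.45) and 0 to 8.49 RPM in sham libraries (median 0.699). The overlap came from sham library 1 with 28 reads, while the other 5 sham libraries held at most 1.75 RPM. Il1rn rose by 2.15 ± 0.54 on the RPM scale (adjusted p = 0.00957), and all 12 fits without 1 of the 1 day libraries passed. At 2 h the difference was 0.59 ± 0.54 (adjusted p = 0.625). At 1 week the irradiated libraries held 2 reads together and the sham libraries 22, with 10 each in sham libraries 1 and 5. The test was not passed there (-0.61 ± 0.54, adjusted p = 0.640). On the RPKM scale without a level filter, where these values all lie near 0, the changes were 0.41 ± 0.14 at 6 h (adjusted p = 0.0605) and 0.52 ± 0.14 at 1 day (adjusted p = 0.0456). With reads added up as at 6 h, the ratio was 2.48 at 2 h (exact 95% interval 1.54 to 4.10). It was 3.57 at 1 day (2.43 to 5.39) and, in the other direction, 0.0941 at 1 week (0.0107 to 0.383). These intervals too cover counting error only.

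Csf1 (ENSMUSG00000014599, chromosome 3, 107741048 to 107760469, minus strand) rose past the threshold at 6 h and, with all libraries kept, at no other time. At 6 h the sham libraries held 1.13 to 2.96 RPKM (median 2.18) and the irradiated ones 8.88 to 15.3 (median 12.03). Not only did the groups not overlap, but no library of any other irradiated group reached the lowest of these 6. Csf1 rose by 2.09 ± 0.30 (adjusted p = 1.36e-06), with a mean RPM 5.73 times higher. Against sham libraries 5 and 6 alone the change was 1.78 (adjusted p = 0.0139).

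Its 2 h values were 1.38 to 4.11 RPKM in sham (median 2.15) and 3.51 to 6.64 in irradiated libraries (median 3.87). Of the irradiated libraries, 5 of 6 were at 3.51 to 4.12, and library 1 was at 6.64. Sham libraries 1 to 3 held 2.70 to 4.11 RPKM and sham libraries 4 to 6 held 1.38 to 1.61. The same 2 sets of irradiated libraries overlapped, at 3.51 to 6.64 and 3.51 to 4.12 RPKM. The change of 0.68 ± 0.30 was not past the limma threshold (adjusted p = 0.175), while the exact permutation test gave an unadjusted p of 0.0108.

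At 1 day the irradiated libraries held 2.19 to 5.81 RPKM of Csf1 (median 3.73). The other 5 sham libraries held 0.803 to 2.33, whereas sham library 3 held 17.5, above every other library of the study. With it the change was 0.42 ± 0.30 (adjusted p = 0.568) and the mean RPM of the irradiated group was 0.901 times that of sham, so that the log scale and the means differ in sign. Without it Csf1 rose by 0.89 (adjusted p = 0.00390). In that library Csf1 stood at 340.5 RPM, 7.54 times the highest of the 4 other sham libraries above 1000000 reads, and 11 of 3434 genes of at least 50 RPM exceeded these 4 libraries by more than 3-fold. At 1 week the ranges overlapped at 2.01 to 3.63 RPKM in sham and 1.09 to 2.89 in irradiated libraries (-0.35 ± 0.30, adjusted p = 0.582).

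The effect on Csf1 differed between times (F test, limma adjusted p = 0.000487). It was 1.41 ± 0.42 greater at 6 h than at 2 h (adjusted p = 0.0287, passed by 9.28% of genes), and it dropped by 1.67 ± 0.42 from 6 h to 1 day (adjusted p = 0.0168, passed by 4.38%). The 1 day effect in this drop was 0.42 with sham 1 day library 3 and 0.89 without it, so the size of the drop depends on that library. In the order of the group medians, irradiated 6 h did not overlap the next group, irradiated 2 h, and each later neighbour overlapped.

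The TNF receptors moved little. Tnfrsf1b (ENSMUSG00000028599, chromosome 4, 145213463 to 145246870, minus strand), the receptor without a death domain, held 5.92 to 12.3 RPKM in sham at 6 h (median 10.2) and 12.6 to 15.7 in irradiated libraries (median 13.4). The groups were adjacent without overlap. The change was 0.50 ± 0.15 (adjusted p = 0.0151), 0.38 without sham library 3 (adjusted p = 0.0756) and 0.24 against sham libraries 5 and 6 alone (adjusted p = 0.853). At the other times its changes were -0.03 ± 0.15 at 2 h (adjusted p = 0.960), -0.14 ± 0.15 at 1 day (adjusted p = 0.730) and 0.28 ± 0.15 at 1 week (adjusted p = 0.345), and the groups overlapped.

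Tnfrsf1a (ENSMUSG00000030341, chromosome 6, 125349362 to 125362484, plus strand), the death domain receptor, had no called change. At 2 h, 6 h and 1 day its changes were 0.01, 0.02 and 0.16, each ± 0.18, with overlapping groups. At 1 week it held 9.27 to 12.2 RPKM in sham (median 10.6) and 13.7 to 20.4 in irradiated libraries (median 14.6). These groups did not overlap, and the change of 0.49 ± 0.18 missed the threshold (adjusted p = 0.129), passing it when 1 week was fitted alone (adjusted p = 0.0453). The exact permutation test gave an unadjusted p of 0.00216, the smallest possible. Of all genes tested, 2.06% had groups apart in this direction at 1 week.

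Levels can be set side by side between genes once reads are divided by the length of the exons, in RPM per kilobase of exon. Over the 24 sham libraries the medians were 87.5 for Tnfrsf1b, 58.4 for Il1a, 56.3 for Tnfrsf1a, 8.32 for Csf1, 5.37 for Tnf, 2.86 for Il1b and 0.0367 for Il1rn. The receptors and Il1a overlapped in their sham ranges, as did Csf1, Tnf and Il1b. The ranges also met across these sets, since Csf1 ended at 64.5 and Tnf at 20.9 while Il1a began at 14.2. At 2 h irradiated libraries held 37.3 to 118.5 of Tnf on this scale, which overlaps the 36.8 to 86.7 of Tnfrsf1a in the same libraries, while in sham at that time Tnf ended at 18.1 and Tnfrsf1a began at 46.2. The ratio of Il1a to Il1b per exon length had a median of 28.4 in sham at 2 h (3.09 to 46.0) and 5.45 in irradiated libraries (4.79 to 7.29). The irradiated ratios lay inside the sham range only through sham library 5, with 64 reads of Il1a and 20 of Il1b. In the other sham libraries the ratio was above every irradiated one, on 2 to 24 reads of Il1b. This difference was not tested.

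**Figure D3:**
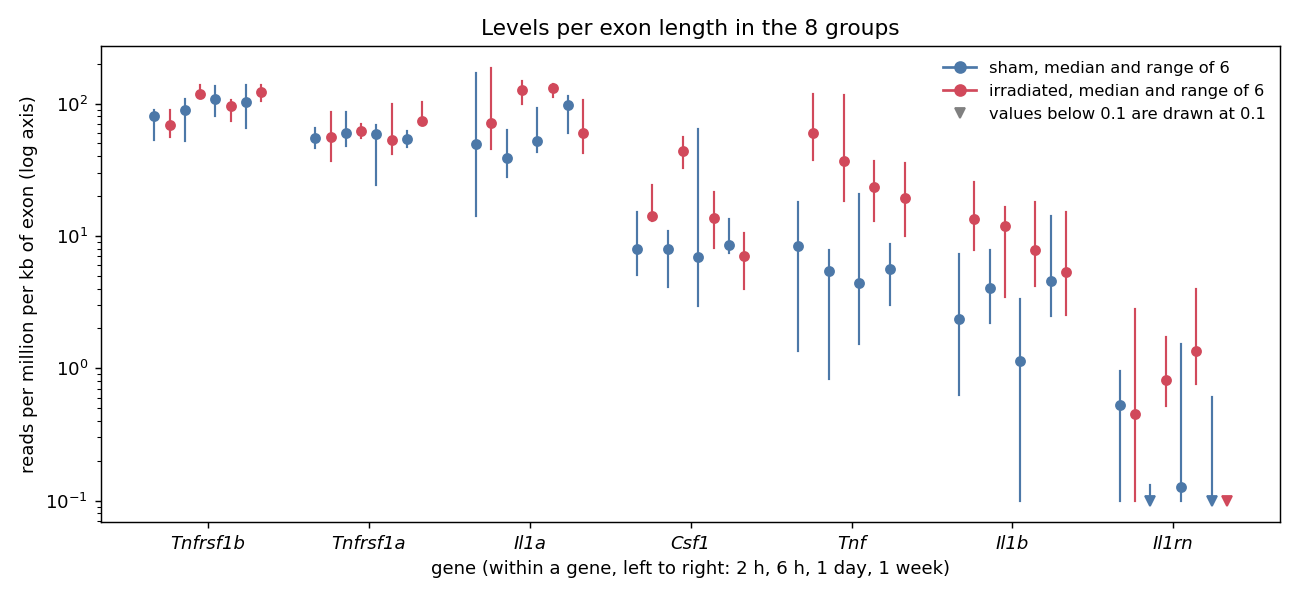
RPM per kilobase of exon (y axis, log) of the 7 genes (x axis) in the 8 groups, with points for the medians and lines for the range of 6 libraries, sham in blue and irradiated in red. The medians of the receptors and Il1a lie highest in sham, and irradiated Tnf at 2 h reaches 37.3 to 118.5, among the receptor levels.

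Immediate early genes, which rise within minutes of cell handling as well as on stimulation in tissue, were followed as a list of 28 because microglia were released by digestion. At 2 h their summed level split both groups by library number. Sham libraries 1 to 3 held 25501 to 28310 RPM and sham libraries 4 to 6 held 5947 to 6968, while the irradiated libraries held 15888 to 22373 and 7108 to 9646. At 6 h the same sets stood apart, at 14722 to 16410 and 7378 to 9374 RPM in sham and 12342 to 16679 and 8491 to 11291 RPM after irradiation. Of the 24 genes of the list that were tested, 3 passed in limma, all named after their values were seen. Dusp2, a phosphatase gene, rose at 2 h (2.12, adjusted p = 0.0118), and Jund and Fosl2, which encode AP-1 subunits, rose at 6 h (1.76, adjusted p = 0.0111, and 0.55, adjusted p = 0.0402). Against sham libraries 5 and 6 alone Jund was at 0.06 and Fosl2 at 0.50, and neither passed. No difference between sham and irradiation passed the test for Fos, Jun, Egr1 or Atf3 at any time.

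At 2 h Il1a and Tnf split the same way. Il1a was 13.7 to 32.5 RPKM in sham libraries 1 to 3 and 2.71 to 5.08 in sham libraries 4 to 6, and 16.6 to 35.7 against 8.62 to 10.5 RPKM in the irradiated ones. Tnf was 8.57 to 11.3 RPKM in sham libraries 1 to 3 and 0.836 to 1.98 in libraries 4 to 6, with 44.4 to 73.9 and 23.2 to 30.4 RPKM after irradiation. Within libraries 1 to 3 Tnf rose by 2.59 (adjusted p = 0.00198) and within libraries 4 to 6 by 3.50 (adjusted p = 3.23e-05). For Il1a the change was 0.05 within the first set (adjusted p = 0.990) and 1.10 within the second, where it passed (adjusted p = 0.0134), and the difference between the sets was not tested. Il1b rose by 1.76 within libraries 1 to 3 (adjusted p = 0.00428), and its change of 1.22 within libraries 4 to 6 was not past the threshold (adjusted p = 0.0830). At 6 h Tnf and Csf1 passed within each set, Il1a and Tnfrsf1b within libraries 1 to 3 alone, and Il1b within neither. The labels give no meaning to the numbers, and the part of these sets in the values was not tested further.

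**Figure D4:**
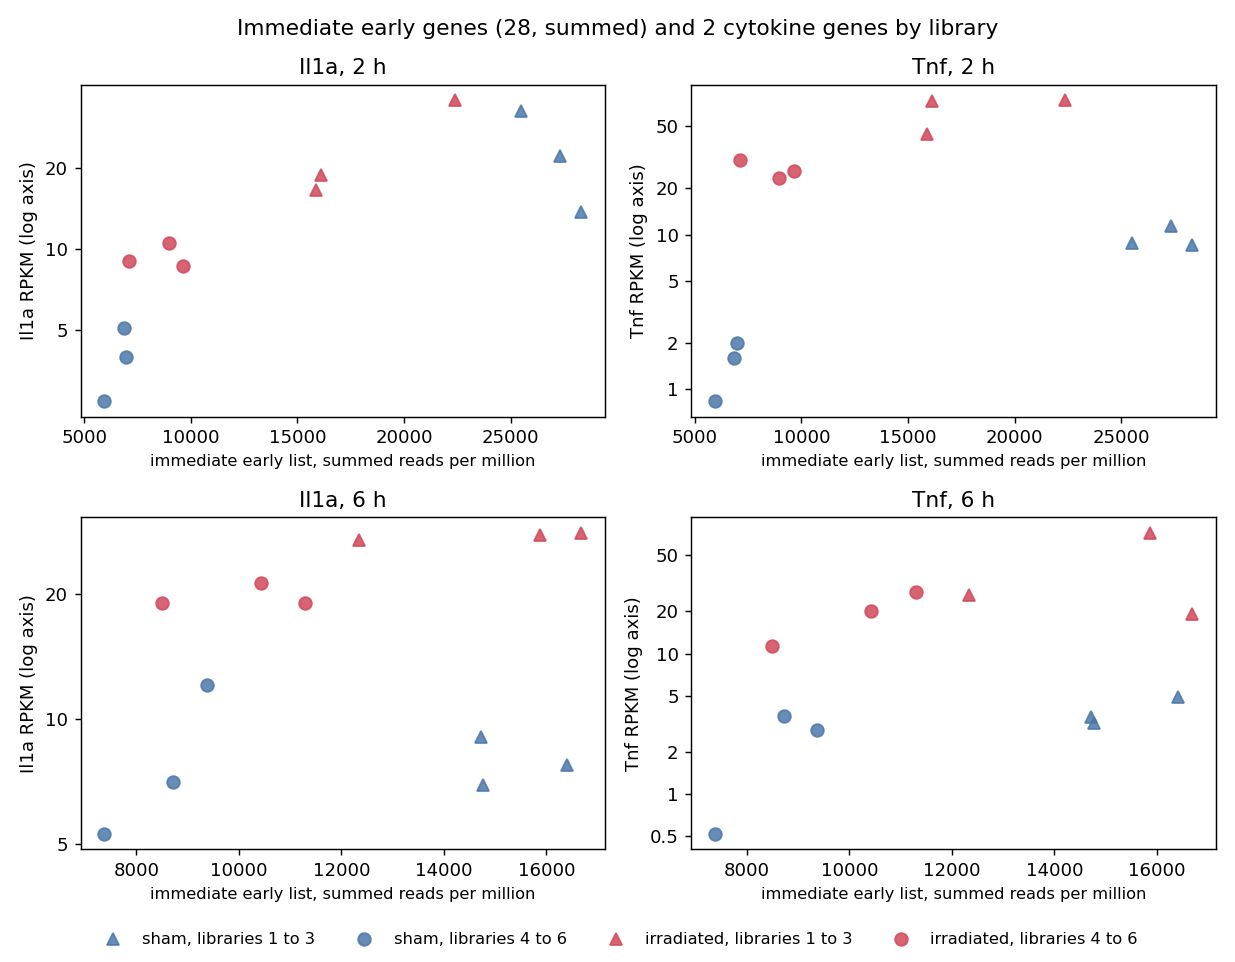
RPKM of Il1a and Tnf (y axes, log) against the summed level of 28 immediate early genes (x axis, RPM) in the 12 libraries of 2 h and of 6 h, with triangles for libraries 1 to 3, circles for 4 to 6, sham in blue and irradiated in red. At 2 h the sham triangles lie at 25501 RPM and above and the sham circles at 6968 and below, with Il1a at 13.7 and above in the first and at 5.08 and below in the second.

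The genes whose levels followed each member most closely, by Pearson's r of log2(RPKM + 1) over the 48 libraries among 6512 genes, are given as a description, since all libraries share the same design. Nearest to Tnf were the kinase gene Plk2 (0.89), Aen (0.88) and the class I antigen gene H2-K1 (0.88). Il1a had Sqstm1 (0.83), Zc3h12a, an RNase that cleaves cytokine messages (0.82), and the phosphatase gene Dusp1 (0.81). After group means were taken out, Dusp1 was at 0.89 with Il1a, Sqstm1 at 0.80 and Zc3h12a at 0.77, while the 3 neighbours of Tnf were at 0.68, 0.44 and 0.68. Il1b was nearest to the chemokine gene Ccl12 (0.74), Pla2g4a (0.73) and Rps27l (0.72), and Il1rn to the complement receptor gene C3ar1 (0.67), Bcl2a1a (0.67) and Lamp1 (0.65). Within groups these were lower, at 0.47, 0.37 and 0.25 for Il1b and at 0.33, 0.48 and 0.41 for Il1rn. For Csf1 the nearest were Cep170b (0.79), Gdf15 (0.78) and Fam198b (0.76), which fell to 0.13, 0.30 and 0.06 within groups. The receptors had lower values at the top, 0.68 for Tnfrsf1a with Psmd13 (0.70 within groups) and 0.73 for Tnfrsf1b with B4galnt1 (0.53).

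Around the members, 8 lists of pathway genes held 166 entries, of which 98 were tested (Il18 stands in 2 lists). At 2 h 9 rose and 7 fell (16.3%), at 6 h 16 rose and 5 fell (21.4%), at 1 day 4 rose and 3 fell (7.14%) and at 1 week 5 rose and 3 fell (8.16%). These shares stand beside 8.62%, 20.9%, 4.29% and 3.54% of all genes. As the lists were chosen with earlier results of these data known, the shares are a description. Against sham libraries 5 and 6 alone, 2 of the 98 rose at 6 h (Rhbdf2 and Gdf15) and 1 fell (Il16).

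Downstream of the TNF receptors 23 of 27 genes were tested, with median changes of 0.19, -0.04, -0.08 and 0.12 at 2 h, 6 h, 1 day and 1 week, where those of all genes were -0.01, 0.08, 0.00 and 0.05. At 2 h 4 rose and 1 fell. Birc3, a ubiquitin ligase of the receptor complex, went from 2.67 ± 0.56 to 7.33 ± 1.08 RPKM (SD, n = 6), a rise of 1.19 ± 0.12 (limma adjusted p = 3.33e-10). Map3k8, a kinase that acts on the ERK pathway, rose by 0.80 ± 0.15, and Tnip1, a partner of A20, by 0.67 ± 0.12. Cflar, a caspase-8 inhibitor, rose by 0.38 ± 0.12, while Otulin, which removes linear ubiquitin chains, fell by 0.69 ± 0.17. At 6 h Ripk3, a necroptosis kinase, rose by 1.11 ± 0.28 with Tab1 and Traf2, and Casp8 fell by 0.77 ± 0.19 with Tab2. None of these 5 passed against sham libraries 5 and 6 alone, where Tab1 was at 0.59 beside 0.66 against all 6, Ripk3 at 0.60, Traf2 at 0.27 beside 0.55, Casp8 at -0.18 and Tab2 at -0.12 beside -0.63. At 1 day 0 of 23 passed in limma, with 0 at an unadjusted p under 0.05 and 0 with voom weights, and at 1 week Casp8 rose by 0.77 ± 0.19 (adjusted p = 0.0142).

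Shedding and clearance of membrane TNF was represented by 6 tested genes. Rhbdf2 encodes iRhom2, which carries ADAM17 to the cell surface. Its level went from 0.323 ± 0.135 to 1.09 ± 0.38 RPKM at 2 h, from 0.381 ± 0.149 to 2.73 ± 0.86 at 6 h and from 0.416 ± 0.184 to 1.77 ± 0.38 at 1 day (SD, n = 6). It rose by 0.65 ± 0.13, 1.41 ± 0.13 and 0.96 ± 0.13 (limma adjusted p = 0.000498, 3.01e-11 and 9.32e-07), and by 1.28 at 6 h against sham libraries 5 and 6 alone (adjusted p = 1.17e-05). Sppl2a, an intramembrane protease that cleaves the TNF stub, rose by 0.64, 0.54 and 0.62 (each ± 0.12) at the same 3 times and fell by 0.46 ± 0.12 at 1 week. Frmd8, a stabiliser of iRhom, rose at 6 h (0.46 ± 0.13). Against sham libraries 5 and 6 alone Sppl2a was at 0.31 and Frmd8 at 0.09 at 6 h, and neither passed (adjusted p = 0.575 and 0.964). Adam17 itself, named after its values were seen, was at 8.08 RPKM in sham and 9.83 in irradiated libraries at 2 h, and its change of 0.25 was not past the threshold (adjusted p = 0.121).

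In the IL-1 receptor pathway 8 of 19 genes reached the filter. The receptor genes Il1r1 and Il1rap did not, with group means of at most 0.0347 and 0.0702 RPKM, and these 2 were named after their values were seen. Both values are divided by the gene span with introns, and levels per exon length were not made for them. The receptor kinase gene Irak2 rose at 2 h (0.38 ± 0.12) and Irak1 at 1 week (0.69 ± 0.19). Among 10 tested genes of IL-1 processing, Casp4, an inflammatory caspase, went from 0.592 ± 0.357 to 2.93 ± 0.60 RPKM at 2 h (SD, n = 6), a rise of 1.32 ± 0.13 (limma adjusted p = 3.13e-10). Nek7, which binds NLRP3, fell by 0.44 ± 0.11 at 2 h and by 0.43 ± 0.11 at 1 week. Aim2, a sensor of DNA, rose at 1 day (0.34 ± 0.10). At 1 week Gsdmd, the pore protein gasdermin D, went from 16.98 ± 3.74 to 36.5 ± 5.96 RPKM (SD, n = 6) and rose by 1.07 ± 0.27 (limma adjusted p = 0.0201). Casp1 and Nlrp3, named after their values were seen, passed at no time.

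The receptor of CSF1 changed at 1 time. Csf1r went from 297 ± 81 to 165 ± 71 RPKM at 1 day (SD, n = 6) and fell by 0.92 ± 0.21 (limma adjusted p = 0.00282). At 6 h, when Csf1 rose, Csf1r was at 332 and 275 RPKM and its change of -0.26 was not past the threshold (adjusted p = 0.404). Il34, the other ligand of the receptor, named after its values were seen, had group means of at most 0.00793 RPKM, again over the gene span with introns. Of the 15 tested genes on this axis Inpp5d, a lipid phosphatase, fell by 0.45 ± 0.12 at 2 h. At 6 h Pik3cd, Csf3r, Tyrobp and Ptpn6 rose by 0.56 to 0.86 and Pik3r1 fell by 0.59 ± 0.16, none of which passed against sham libraries 5 and 6 alone. There Pik3cd, Csf3r and Tyrobp were at 0.15 to 0.28, Pik3r1 was at -0.06 and Ptpn6 was at -0.12, of the opposite sign.

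Of 35 other members of the TNF superfamily 11 were tested, and 1 fell at 2 h, 1 rose and 1 fell at 6 h, 1 fell at 1 day, and 2 rose and 1 fell at 1 week. Tnfrsf12a, the receptor of TWEAK, went from 4.21 ± 4.70 to 29.3 ± 8.1 RPKM at 6 h (SD, n = 6) and rose by 2.91 ± 0.46 (limma adjusted p = 9.70e-06), but by 1.52 against sham libraries 5 and 6, where it did not pass (adjusted p = 0.287). The B-cell receptors Tnfrsf13b, at 2 h and 6 h, and Tnfrsf17, at 1 day and 1 week, fell by 0.55 to 1.06, and at 6 h Tnfrsf13b did not pass against sham libraries 5 and 6 (-0.47). At 1 week Ltbr, the lymphotoxin beta receptor, rose by 0.79 ± 0.21 and Tnfrsf14 by 0.81 ± 0.24. Among the 24 members below the level filter, which were not tested, the death receptor gene Fas was at 0.0176 ± 0.0193 RPKM in sham and 1.14 ± 0.38 in irradiated libraries at 2 h, and Tnfrsf10b, a receptor of TRAIL, at 0.0190 ± 0.0209 and 1.36 ± 0.47 (SD, n = 6). Eda2r was at 0.00169 and 0.181 RPKM there. These 3 were named after their values were seen.

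Among 9 tested cytokines outside these families, Gdf15, a stress-induced cytokine, went from 0.716 ± 0.685 to 12.8 ± 9.9 RPKM at 2 h, from 0.449 ± 0.269 to 48.8 ± 9.1 at 6 h and from 0.355 ± 0.321 to 3.58 ± 1.70 at 1 day (SD, n = 6). It rose by 2.73, 5.11 and 1.70, each ± 0.35, and by 4.99 at 6 h against sham libraries 5 and 6 alone (limma adjusted p = 4.05e-09). Osm (1.82 ± 0.38), Mif (1.62 ± 0.45) and Pdgfb (1.49 ± 0.23) rose at 6 h, and none of the 3 passed against sham libraries 5 and 6, where they were at 1.36, 1.16 and 0.79. Il16 fell at 2 h by 0.56 ± 0.14 and Tgfb1 at 1 day by 0.58 ± 0.14.

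Of 16 tested genes that control the decay of cytokine messages, Zc3h12a went from 2.71 ± 1.55 to 9.76 ± 2.13 RPKM at 6 h (SD, n = 6) and rose by 1.61 ± 0.29 (limma adjusted p = 7.54e-05), without passing against sham libraries 5 and 6 (0.91, adjusted p = 0.388). Zfp36l2, which encodes a protein that binds AU-rich elements, fell by 0.67 ± 0.21 at 2 h and by 1.10 ± 0.21 at 6 h, but was at -0.23 against sham libraries 5 and 6 (adjusted p = 0.904). Cnot8, a deadenylase subunit, fell at 2 h by 0.57 ± 0.12. Zfp36, the best known of this family, was at 148 RPKM in sham and 215 in irradiated libraries at 6 h, and passed at no time.

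**Figure D5:**
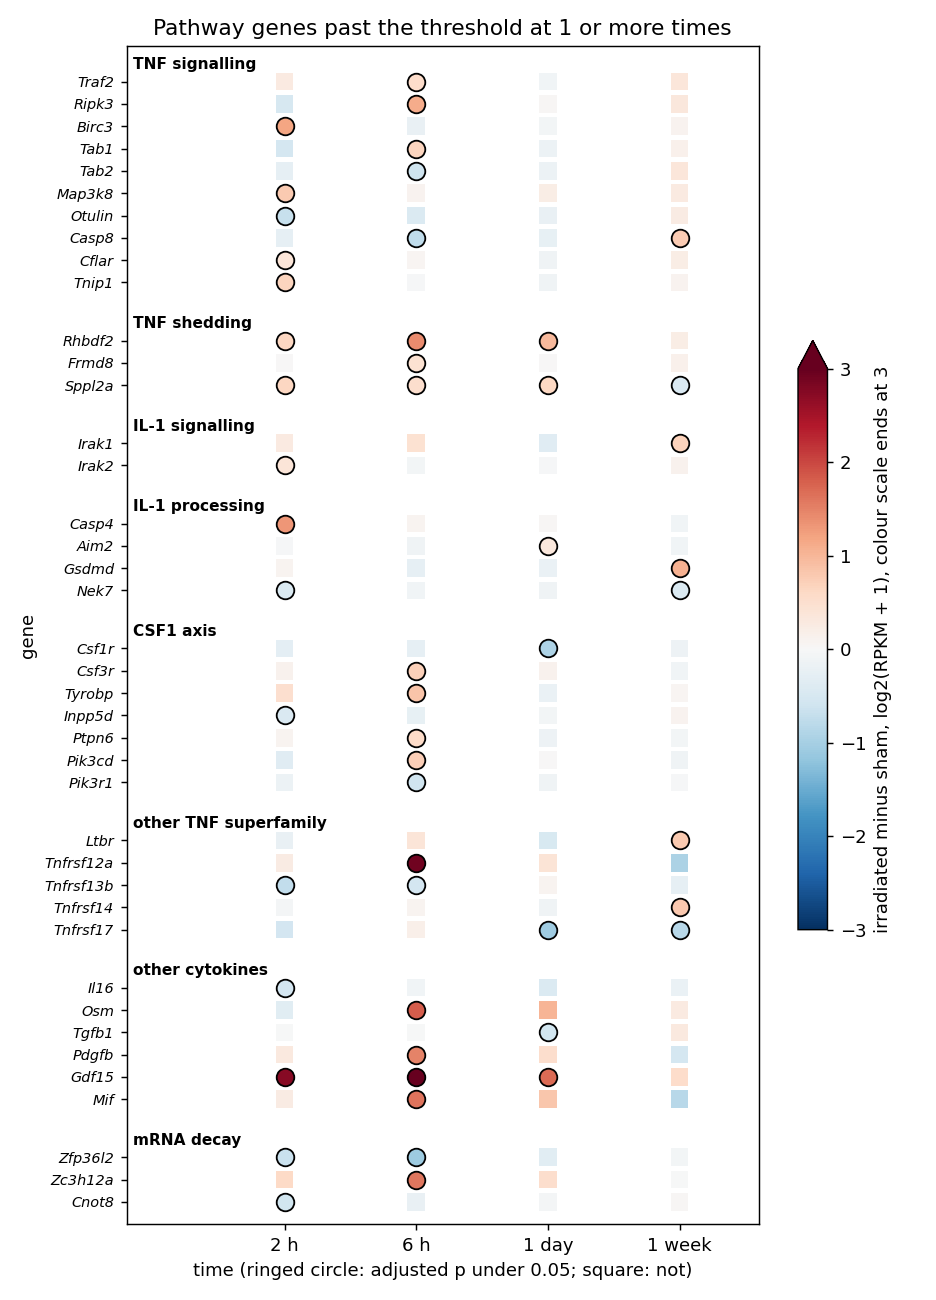
Irradiated less sham in log2(RPKM + 1) (colour, red higher and blue lower) of the 40 pathway genes past the threshold at 1 or more of 4 times (x axis), in 8 lists (y axis). Ringed circles passed an adjusted p of 0.05 and squares did not, and Gdf15 and Rhbdf2 are ringed at 2 h, 6 h and 1 day.

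Markers of other cells moved with some of these groups, mostly through single genes. The astrocyte list was at 246 to 448 RPM in sham and 657 to 967 in irradiated libraries at 2 h, and 92.4% of its reads were from Slc1a3. At 6 h it was at 296 to 344 and 372 to 521 RPM, and its part without Slc1a3 at 13.3 to 41.4 and 38.5 to 72.4 RPM. Both of its 2 tested genes rose at 6 h, and 0 did against sham libraries 5 and 6 alone. The list of monocytes and neutrophils was at 241 to 555 RPM in sham and 535 to 758 in irradiated libraries at 6 h, with 95.1% of its reads from Csf3r, a gene that microglia also express. At 1 day 1 of its 3 tested genes rose, which was not Csf3r (limma adjusted p = 0.753). Its part without Csf3r was then at 13.9 to 57.0 RPM in sham and 25.1 to 92.3 in irradiated libraries. The 1 tested gene of the lymphocyte list fell at 2 h, with the list at 18.0 to 49.1 and 15.0 to 22.7 RPM. The perivascular macrophage list was at 614 to 931 RPM in sham and 1030 to 1438 in irradiated libraries at 1 week, 86.4% of it from Stab1. Of 11 tested microglial markers, 3 fell at 2 h, 5 fell and 1 rose at 6 h, 5 fell at 1 day, and 2 rose and 1 fell at 1 week. Against sham libraries 5 and 6 alone, 2 fell and 0 rose at 6 h. At 1 day P2ry12, Siglech, Sall1 and Cx3cr1, the receptor used for sorting, fell by 0.79, 1.12, 0.78 and 0.42. Mitochondrial genes took 3.05% to 9.34% of reads in sham and 6.14% to 14.6% in irradiated libraries at 2 h. Their order was the reverse at 6 h (3.09% to 7.11% and 2.35% to 4.34%) and in the medians at 1 day (3.85% and 2.25%), and at 1 week the groups did not overlap, with 1.42% to 2.36% in sham and 2.56% to 4.38% in irradiated libraries. The part of these differences in the levels of the 7 genes was not tested.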

How the data were processed

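RNA of 48 libraries was analysed from 1 table of RPKM values that the authors deposited for 48526 genes. The submitters' processing notes name STAR 2.6.1d and featureCounts 1.5.1, beside bcl2fastq 2.20.0 and FastQC 0.11.8, with the builds GRCm38 and mm10, and counting by strand is not given in the sources used here. Each deposited value was a whole read number (100% of 719081 values, within 0.001 reads) divided by gene span and by a library total, which was the library's own for 2.05% of values. Reads were recovered and RPKM remade with the library's own total, and the deposited values were 0.436 to 3.11 times the remade ones (5th to 95th percentile).

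Genes of at least 1 RPKM in 6 or more libraries (10132) were fitted in log2(RPKM + 1) by limma 3.58.1 (R 4.3.3), with 8 group means, trended and robust eBayes, 40 residual degrees of freedom, two-sided tests and a Benjamini-Hochberg threshold of 0.05. The fit, and the recovery, were tested on simulated data. Totals of 175382 to 3856777 reads limit low genes. The limma p values of this fit rest on the spread between animals within groups, pooled over the 8 groups and moderated across genes.

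The named genes were the 7, up to 4 called genes per pathway list and time by adjusted p, the 3 nearest genes of each member, and Fos, Jun, Egr1 and Atf3. Cflar, Traf2, Ptpn6, Zfp36, the overlapping genes and those so marked in the text were named after their values were seen. The 7 genes and the lists were chosen with earlier results of these data known. The split into libraries 1 to 3 and 4 to 6 was added after seeing the data. Alternatives were other pseudocounts, filters, scalings and weights, the values as deposited, an exact permutation test, and fits without some libraries.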

Additional observations from a re-analysis of the deposited data

Results flagged for a closer look

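Among the 56 groups of 6 libraries (7 genes in 8 groups), 9 held 1 library far above the other 5 by Dixon's criterion (gap over range above 0.625). The criterion assumes normally spread values, while these are linear RPKM, some of few reads, and the genes share libraries. No chance rate is therefore given. Tnf was at 72.7 RPKM in irradiated 6 h library 3 and at 13.02 in sham 1 day library 6. The same sham library, the shallowest of all, was highest for Il1a at 17.6 RPKM. Il1b was at 4.09 RPKM in sham 1 week library 2. Il1rn, of few reads, stood apart in sham 6 h library 5 (0.050 RPKM), in sham 1 day library 1 (0.580) and in irradiated 1 day library 2 (1.51). Csf1 was at 6.64 RPKM in irradiated 2 h library 1 and at 17.5 in sham 1 day library 3.

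The effect of irradiation differed between the 4 times for Il1a (F test, limma adjusted p = 0.0132) and for Csf1 (adjusted p = 0.000487).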

How the results depend on the processing

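Over the settings that left out no single library, no change of any member turned its direction among those past the threshold, and 271 values stayed on their side of it, 24 lost it and 13 gained it. The 13 include unadjusted p values of the exact permutation test under 0.05, for Csf1 at 2 h, Il1rn at 6 h, and Tnf and Tnfrsf1a at 1 week. With the values as deposited, the members changed were 1 at 2 h, 1 at 6 h and 0 at 1 day, 0 had an effect that differed between times, and 1 differed among the sham groups. At 6 h 2 members changed against sham libraries 5 and 6 alone, and 2 with libraries 4 to 6 of both groups (Tnf and Csf1 in each). With sham libraries 5 and 6 alone, 1 member had an effect that differed between times. At 1 week 2 changed with voom weights and 2 when fitted alone, and 1 did without the libraries under 1000000 reads and with a term for libraries 1 to 3 and 4 to 6. In RPM 4 members had an effect that differed between times. Among the sham groups 0 members differed, against 1 with a pseudocount of 0.1, 1 in RPM, 2 with voom weights and 1 with sham 6 h libraries 1 to 4 alone.

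Over all genes tested, the counts past the threshold (873, 2120, 435 and 359 at 2 h, 6 h, 1 day and 1 week) were 52, 64, 39 and 11 with the values as deposited. They were 513 at 2 h and 259 at 1 day when fitted alone, 550 and 361 at 2 h with libraries 1 to 3 and 4 to 6, 212 at 6 h against sham libraries 5 and 6, and 338 there with libraries 4 to 6. At 1 week they were 235 without a filter, 709 with voom weights and as few as 137 without 1 library (sham library 4).

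Leaving out each library in turn gave 2 members changed at 2 h in every fit, 3 to 5 at 6 h, 2 to 3 at 1 day, 0 to 1 at 1 week, 2 to 3 with an effect that differed between times and 0 to 1 that differed among the sham groups. The 3 at 6 h came without sham library 3, and the 1 at 1 week without irradiated library 2.

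Replicate numbers are shared by the groups, but same-numbered libraries deviated together (r over 0.1) in 2 of 24 pairs, and 7 of 24 correlated best with their own number. Both of these pairs were at 2 h (numbers 1 and 5, r = 0.14 and 0.13). At that time numbers 1, 3, 5 and 6 correlated best with their own number. Every best partner at 2 h came from the same set, libraries 1 to 3 or 4 to 6. With a replicate block 1 member changed at 1 week (Tnf, adjusted p = 0.0198) and 4 had an effect that differed between times.

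Few reads limit Il1rn and Il1b most, and the 3 libraries under 1000000 reads limit every member in their groups. The causes of these differences between settings were not tested.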
